A study of Mus musculus with 3 samples.

Results

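The proteasome is the protease that degrades most ubiquitin-tagged proteins of the cytosol and nucleus. Its genes in mouse macrophages were followed here through 47 members among the 55536 genes of the deposited tables. The members are the genes whose symbol begins with Psma, Psmb, Psmc, Psmd, Psme, Psmf or Psmg and a number and that have at least 1 transcript annotated as protein_coding. The 3 catalytic genes of the immunoproteasome, Psmb8, Psmb9 and Psmb10, were set aside, and 4 further matches, all pseudogenes of Psmb genes, had no protein_coding transcript. Of the 47 members, 31 encode constitutive subunits of the core and its cap. The others are assembly chaperones, activators, an inhibitor, tissue-restricted core genes and Psmc3ip, a recombination protein that matches the spelling and is no subunit.

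The RNA was polyadenylated RNA of bone-marrow-derived macrophages from C57BL/6J mice, an inbred laboratory strain. There was 1 group of 3 libraries, biological replicates 1, 2 and 3, whose labels pair a lipid A dose of 100 ng/ml with 0 minutes of exposure. Lipid A, the anchor of bacterial lipopolysaccharide, activates Toll-like receptor 4, so that 0 minutes stands for macrophages before a response. All 3 libraries share a donor record and have their own biosamples. Separate animals are not stated, and part of the spread among the libraries may be technical. There was no second group, so that no difference was tested, and every value below is a level or a spread over the 3 libraries.

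The core particle, called 20S, is a barrel of 4 stacked rings in which the beta rings carry the active sites and the alpha rings guard the entrance. The cap, called 19S, holds a ring of ATPases that unfold substrates and a lid and base that bind and remove ubiquitin. In macrophages the proteasome also supplies peptides for display on major histocompatibility complex class I molecules. Interferon leads to the exchange of the catalytic subunits for those of the immunoproteasome and raises the activator PA28. The expression of the constitutive genes is known to be coordinated, and the transcription factor encoded by Nfe2l1 raises them when proteasome activity falls.

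Depth was 27946070, 29779410 and 53447437 expected counts over all genes for replicates 1, 2 and 3. The members took 0.374% of these counts in replicate 1 (95% Wilson interval 0.372 to 0.377%). They took 0.297% in replicate 2 (0.295 to 0.299%) and 0.309% in replicate 3 (0.307 to 0.310%). The intervals cover counting error only. All 6 macrophage markers examined exceeded 1 TPM, a level scaled by transcript length and library size, in every library, among them Csf1r and Adgre1. Markers of T cells, B cells, erythroid and stromal cells summed to at most 0.41 TPM a list in a library. The libraries also differed in other ways. The 6 interferon-response genes summed to 535, 1990 and 397 TPM in replicates 1, 2 and 3, the 5 proliferation genes to 855, 191 and 383 TPM, and the 7 neutrophil genes to 171, 35.9 and 337 TPM, with Ly6g at 0 throughout. Mitochondrial genes took 1.84%, 2.24% and 6.98% of the counts, and the gene CT010467.1, which has a transcript annotated as rRNA, took 9.75%, 1.88% and 2.50%. The part of these differences in the results below was not tested.

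Almost all proteasome genes were well expressed. Of the 47 members, 45 reached 1 TPM in every library, against 10548 of all 55536 genes (19%). The median member had 84.3 TPM on average, and the median over members was 99.3, 72.2 and 68.6 TPM in replicates 1, 2 and 3 (SD 16.8, n = 3). The 31 core and cap subunits had a median of 98.7 TPM, and all of them lay between the 74.4th and the 95.7th percentile of the 10548 genes detected in every library, whose median was 18.6 TPM. The subunits of 1 complex thus spanned a 6.26-fold range of mean level per length, between 283 TPM for Psmd8 and 45.2 TPM for Psmd11. The assembly chaperones, Psmf1, Psme4 and Psme2b stood lower, at 12.9 to 35.1 TPM.

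**Figure D1:**
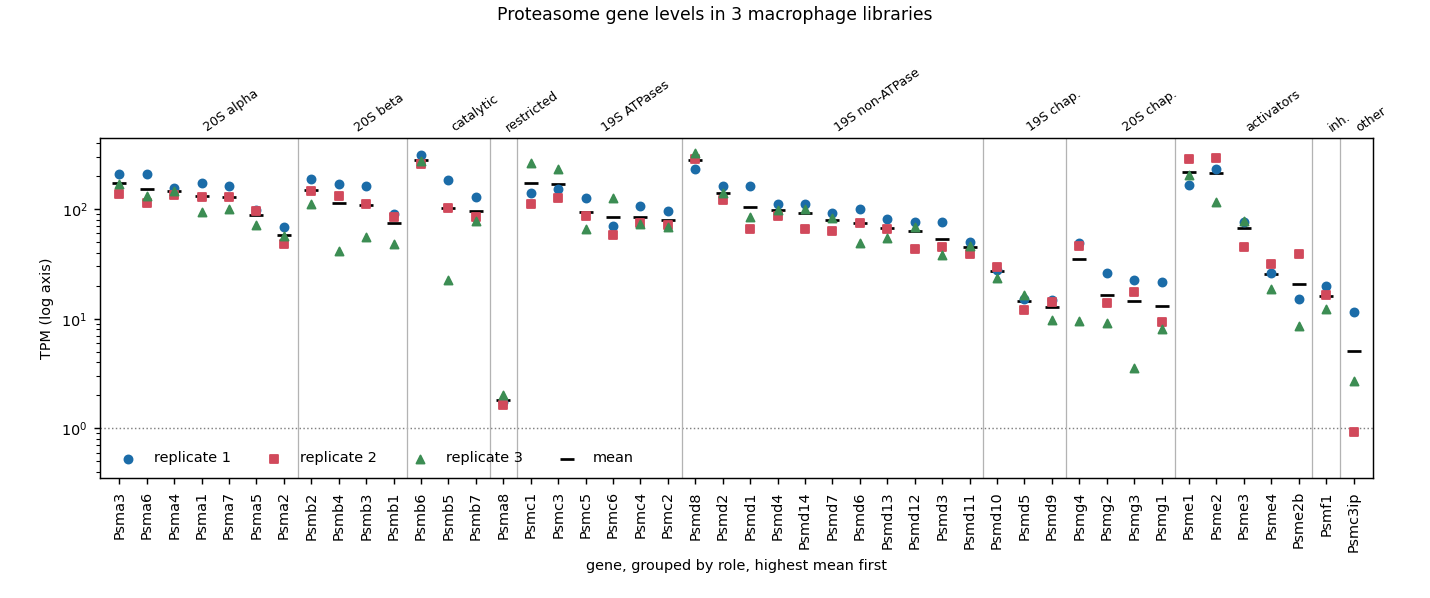
Level of each proteasome gene in TPM (log axis) in replicates 1, 2 and 3 (points) with the mean (bar), grouped by role and ordered by mean; the dotted line marks 1 TPM and Psmb11, with no counts, is left out. The core and cap subunits lie between means of 45.2 and 283 TPM, the assembly chaperones between 12.9 and 35.1 TPM, and replicate 3 stands far below the other libraries for Psmb4, Psmb5, Psmg3 and Psmg4.

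The 7 alpha-ring genes had mean levels within 2.99-fold of each other. Psma3 was the highest in the RSEM-format values, with 209.8, 137 and 169 TPM in replicates 1, 2 and 3 (172 ± 36.4, SD, n = 3). Psma6 had 208, 114 and 131 TPM and Psma4 155, 135 and 147 TPM. In these TPM values replicate 1 was the highest library and replicate 2 the lowest. On scaled counts Psma4 was highest in replicate 3 (log2 ratio 0.39), and in kallisto-format TPM Psma3 was lowest there (123, 82.0 and 75.6 TPM). The kallisto-format mean of Psma3 was 93.6 TPM, below those of Psma4 (117), Psma6 (115), Psma7 (104) and Psma1 (103). In protein_coding transcripts alone Psma3 had 28.8, 18.4 and 128 TPM in replicates 1, 2 and 3. Psma2 was the lowest of the ring, with 68.1, 47.7 and 57.1 TPM (57.6 ± 10.2). Psma5 and Psma7 were among the members that varied least once the libraries were scaled, with an SD of the log2 scaled counts of 0.07 and 0.21. Their levels were 99.3, 95.5 and 71.8 TPM for Psma5 and 161, 129 and 99.5 TPM for Psma7.

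Among the 4 structural beta-ring genes, Psmb2 had 188, 147 and 111 TPM in replicates 1, 2 and 3 and Psmb1 had 89.5, 84.7 and 48.0 TPM. Psmb3 had 161, 112 and 55.6 TPM. Psmb4, whose product joins the half-particle last, had 171, 132 and 41.7 TPM. All 4 were highest in replicate 1 and lowest in replicate 3. The gap was widest for Psmb4, which lay 3.50-fold apart between the highest and the lowest library on scaled counts.

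The 3 constitutive active sites differed both in level and in how much they varied. Psmb6, the caspase-like subunit, had 312, 257 and 273 TPM in replicates 1, 2 and 3 (281 ± 28.1, SD, n = 3) and was the second most abundant of all members after Psmd8. Psmb7, the trypsin-like subunit, had 129, 84.6 and 77.4 TPM (97.2 ± 28.2). Psmb5, the chymotrypsin-like subunit and the main target of the drug bortezomib, had 183, 102 and 22.5 TPM (103 ± 80.2). Its SD was nearly as large as its mean. The 3 libraries of Psmb5 were spread over 6.40-fold on scaled counts, the widest range of any core or cap subunit, so that Psmb5 could stand above or below Psmb7 depending on the library. The gene lies on the reverse strand at chr14:54614119-54618022 (mm10), and 1 of its exons overlaps the microRNA gene Mir686 on the same strand.

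The immunoproteasome genes were expressed at 0 minutes. Psmb8, which takes the place of Psmb5, had 227, 278 and 102 TPM in replicates 1, 2 and 3. Summed over all transcripts, Psmb8 exceeded Psmb5 in every library, with TPM ratios of 1.24, 2.72 and 4.51 (2.82 ± 1.64, SD, n = 3). Transcripts other than protein_coding held 24.8%, 27.9% and 18.6% of the Psmb8 level in replicates 1, 2 and 3, and 0% of the Psmb5 level. In protein_coding transcripts alone, Psmb8 lay below Psmb5 in replicate 1 and above it in replicates 2 and 3. In replicate 3 both genes were at their lowest, Psmb5 more so. Psmb9, which takes the place of Psmb6, had 39.2, 75.02 and 27.6 TPM and stayed below Psmb6 in every library, with ratios of 0.126, 0.292 and 0.101 (0.173 ± 0.104). Psmb10, which takes the place of Psmb7, had 79.7, 176 and 35.8 TPM. It exceeded Psmb7 only in replicate 2, with ratios of 0.615, 2.08 and 0.462 (1.05 ± 0.895). The 3 pairs therefore did not stand in 1 common ratio in any library. All 3 immunoproteasome genes were highest in replicate 2, the library with the largest sum of interferon-response genes (1990 TPM). The coding sequences of the pairs are 59.7% (Psmb8 and Psmb5), 60.9% (Psmb9 and Psmb6) and 61.3% (Psmb10 and Psmb7) identical.

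**Figure D2:**
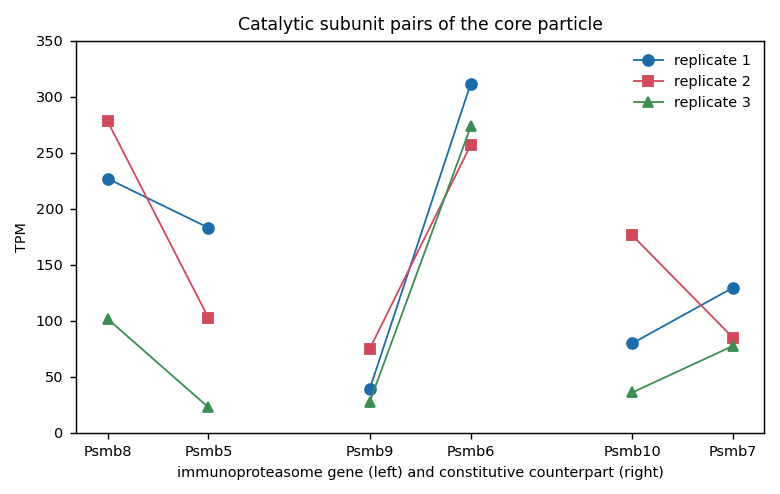
Level in TPM of each immunoproteasome gene (left of each pair) and its constitutive counterpart (right) in replicates 1, 2 and 3, with a line joining the values of a library. Psmb8 lies above Psmb5 in all 3 libraries, Psmb9 below Psmb6 in all 3, and Psmb10 above Psmb7 in replicate 2 only (176 against 84.6 TPM).

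Promoter windows are shown for a catalytic pair of the same ring that behaved differently, Psmb5 and Psmb6, and for the activator gene Psme1. Psme1 was highest in replicate 2, the library with the most interferon-response RNA, but only narrowly on scaled counts. Its log2 ratios were −0.70, 0.43 and 0.28 in replicates 1, 2 and 3. It was lowest in replicate 1, where the interferon-response genes summed to more (535 TPM) than in replicate 3 (397 TPM). Each window is RefSeq sequence of build GRCm38.p6, written 5′ to 3′ on the gene's strand, 250 bases before the annotated start and 30 after it. Capitals mark matches to TGACNNNGC, the core of the antioxidant response element bound by Nfe2l1 and Nfe2l2, in Psmb5 and Psmb6, and to TTTC repeated after a gap of 2 bases, a pattern like the interferon-stimulated response element, in Psme1.
Psmb5, reverse strand, chr14:54617966-54618245: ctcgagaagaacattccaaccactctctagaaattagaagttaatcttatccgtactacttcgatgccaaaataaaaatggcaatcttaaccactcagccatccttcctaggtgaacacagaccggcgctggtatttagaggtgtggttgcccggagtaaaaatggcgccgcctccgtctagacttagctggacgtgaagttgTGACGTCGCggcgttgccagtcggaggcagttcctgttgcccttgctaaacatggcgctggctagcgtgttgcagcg
Psmb6, forward strand, chr11:70525107-70525386: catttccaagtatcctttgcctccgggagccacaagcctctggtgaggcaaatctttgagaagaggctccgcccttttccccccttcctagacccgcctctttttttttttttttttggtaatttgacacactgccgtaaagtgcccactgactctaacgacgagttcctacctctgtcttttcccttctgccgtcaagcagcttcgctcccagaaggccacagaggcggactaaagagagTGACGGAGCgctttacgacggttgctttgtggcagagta
Psme1, forward strand, chr14:55578244-55578523: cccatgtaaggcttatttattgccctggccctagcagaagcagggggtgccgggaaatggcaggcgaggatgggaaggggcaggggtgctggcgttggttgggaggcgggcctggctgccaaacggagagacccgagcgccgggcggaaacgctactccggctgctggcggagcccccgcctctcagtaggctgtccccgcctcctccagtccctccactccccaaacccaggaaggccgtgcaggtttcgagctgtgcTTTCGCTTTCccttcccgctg
The match begins 47 bases before the start in Psmb5, 9 bases before it in Psmb6 and 9 bases after it in Psme1. Over windows of 300 bases (250 before and 50 after the start, both strands) 39 members had a RefSeq promoter. TGACNNNGC was found in 6 of them (15.4%, against 13.99% of 27025 genes), namely Psmb5, Psmb6, Psmc6, Psmd9, Psmd12 and Psme4. The repeated TTTC was found in 5 (12.8%, against 3.99%), namely Psmb3, Psmd4, Psmd9, Psmg4 and Psme1. Of these 5, Psme1 alone was highest in replicate 2. The pattern was not found in the windows of Psme2, Psmb8 or Psmb9, which were also highest in replicate 2. CCAAT was found in 14 (35.9%, against 41.1%) and TTCNNNGAA, a pattern like the gamma-activated site, in 2 (5.13%, against 9.55%). Outside the members, TTCNNNGAA was also found in the window of Psmb8 and CCAAT in that of Psmb9. A match is a stretch of letters and not a bound site.

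Of the 6 ATPases, which form the unfolding ring of the cap, 2 stood out. Psmc1 had 140.2, 112 and 263 TPM in replicates 1, 2 and 3 (172 ± 80.4, SD, n = 3) and Psmc3 had 153, 127 and 233 TPM (171 ± 54.9). Psmc6 had 70.1, 58.0 and 125 TPM. Unlike the structural beta-ring genes, these 3 ATPases were highest in replicate 3, and Psmc1 lay 2.33-fold apart between replicates 3 and 2. The other 3 were highest in replicate 1, with means of 93.4 TPM for Psmc5, 84.3 TPM for Psmc4 and 79.3 TPM for Psmc2 (96.4, 72.2 and 69.2 TPM by library).

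The 11 non-ATPase subunits had the widest range of mean level (6.26-fold) among the roles of the core and cap. Psmd8, a lid subunit, had 231, 289.7 and 328 TPM (283 ± 48.9, SD, n = 3). Psmd2, a base scaffold that receives ubiquitin-like domains, had 161, 121 and 139.9 TPM (141 ± 20.1). Psmd1, the other large scaffold, had 162, 66.5 and 84.5 TPM (104 ± 50.8). Among the 31 subunits it was the only cap gene besides Psmc1 with any 2 libraries over 2-fold apart on scaled counts. Part of its level was in Psmd1-208, annotated as processed_transcript, with 39.8, 2.89 and 8.52 TPM in replicates 1, 2 and 3. In protein_coding transcripts alone Psmd1 had 121.6, 62.6 and 75.4 TPM. Psmd1 overlaps an exon of the annotated gene Gm21972 on the same strand. Psmd4, a ubiquitin receptor, averaged 98.7 ± 12.9 TPM, and Psmd14, the deubiquitinase of the lid, 92.4 ± 24.2 TPM. Psmd11 was the lowest, with 50.6, 38.9 and 46.0 TPM.

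The chaperones of the cap and of the core behaved unlike each other. The cap chaperones, which bind ATPases before the cap is complete, were low, and none had 2 libraries over 2-fold apart on scaled counts. Psmd10 had 28.1, 29.5 and 23.6 TPM and the smallest spread of all members (SD 0.04 on log2 scaled counts). Psmd5 had 15.0, 12.1 and 16.4 TPM (SD 0.17 on the same scale). Psmd9 was less even, with 14.9, 14.2 and 9.78 TPM (SD 0.28 on the same scale). All 4 core chaperones, which work as the pairs Psmg1 with Psmg2 and Psmg3 with Psmg4, were highest in replicate 1, and each had 2 libraries over 2-fold apart. Psmg4 had 49.6, 46.4 and 9.45 TPM and Psmg3 22.4, 17.7 and 3.59 TPM. Psmg2 had 26.3, 13.9 and 9.19 TPM and Psmg1 21.8, 9.25 and 8.07 TPM. In both members of the pair Psmg3 and Psmg4 replicates 1 and 2 were close and replicate 3 was far below, while in both members of the pair Psmg1 and Psmg2 replicate 1 stood above the other two. These are genes of few counts, with 98 to 263 for Psmg3 and 109 to 251 for Psmg4, and Psmg3 shares exon bases with Gm26938 on the same strand.

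The activators open the gate of the core. Psme1 and Psme2 encode PA28 alpha and beta, which interferon gamma induces, and they were the most abundant of the role. Psme1 had 167, 286 and 207 TPM in replicates 1, 2 and 3 (220.1 ± 60.5, SD, n = 3) and Psme2 had 234, 295 and 117 TPM (215 ± 90.2). Replicate 2 was the highest for both, as it was for the 3 immunoproteasome genes. The nuclear form Psme3 went the other way, with 77.1, 45.4 and 77.6 TPM (66.7 ± 18.5), lowest in replicate 2. Psme4, which encodes the large activator PA200, had 26.2, 31.4 and 18.8 TPM, and Psmf1, which encodes the inhibitor PI31, had 20.0, 16.6 and 12.2 TPM.

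Psme2b is a near copy of Psme2 on chromosome 11, and its values depend on how shared reads were divided. Its level was 15.0, 38.6 and 8.57 TPM in replicates 1, 2 and 3. The 2 coding sequences of 717 bases differ at 5 positions (99.3% identity). A stretch of 120 bases (coding bases 424 to 543, GENCODE M21) with 3 of the 5 differences in capitals shows how little separates them.
Psme2b, chromosome 11: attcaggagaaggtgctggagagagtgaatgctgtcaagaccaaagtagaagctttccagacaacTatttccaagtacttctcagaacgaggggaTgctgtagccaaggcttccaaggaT
Psme2, chromosome 14: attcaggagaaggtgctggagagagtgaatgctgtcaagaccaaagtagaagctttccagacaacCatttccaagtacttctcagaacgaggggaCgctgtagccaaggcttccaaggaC
Psme2b received 5.23%, 9.91% and 5.79% of the counts of the pair in the RSEM-format tables of replicates 1, 2 and 3. In the kallisto-format tables, which were made directly from the reads, it received 6.38%, 14.9% and 23.8%. Replicate 3 thus held the middle Psme2b share by the first estimate and the highest by the other.

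The tissue-restricted core genes had the lowest mean levels of the members. Psmb11, the form of Psmb5 found in the thymus, had 0 expected counts in every RSEM-format table (at most 0.113 TPM in the kallisto-format tables), which allows up to 3 counts, or 0.107, 0.101 and 0.0561 CPM (counts scaled to a common library size). Psma8, the testis form of Psma7, had 1.75, 1.65 and 2.03 TPM (42, 39 and 101 counts). Its coding sequence is 74.3% identical to that of Psma7. Psmc3ip, the recombination protein, had 11.6, 0.93 and 2.71 TPM and the largest spread of all members (SD 1.68 on log2 scaled counts). Its highest and lowest libraries were those in which the 5 proliferation genes summed to the most and the least (855 TPM in replicate 1, 191 TPM in replicate 2). Pcna gave most of these sums (725 and 178 TPM). Mki67 was highest in replicate 3 (17.0 TPM), and the other genes of the list in replicate 1.

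To compare the libraries, counts were scaled by the trimmed mean of M values (TMM), and each library's log2 level was set against the mean of the other 2. These ratios share libraries and are not independent. Of the 47 members, 46 passed the filter on low counts, with 11886 genes in all. The members' median ratio was 0.38, −0.31 and −0.09 in replicates 1, 2 and 3, against 0.00, 0.00 and 0.01 for all genes. The value of −0.31 in replicate 2 rested mainly on replicate 1, and was −0.07 without it. The subunits alone had 0.39, −0.38 and 0.07. Without replicate 2 their value was 0.22 in replicate 1 and −0.22 in replicate 3. Replicate 1 was the highest library for 30 of 46 members, against 34.7% of all genes, and for 22 of 31 subunits. None of the 31 subunits was highest in replicate 2, where 32.3% of all genes were highest. That library was the highest for 4 of 5 activators, Psme1, Psme2, Psme2b and Psme4. Replicate 2 was the lowest for 22 of 46 members (32.9% of all genes), replicate 3 for 21 (32.7%) and replicate 1 for 3 (34.5%). Replicate 3 was the highest for 12 (33%). In bulk RNA, fewer cells of a kind and less RNA per cell cannot be told apart.

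**Figure D3:**
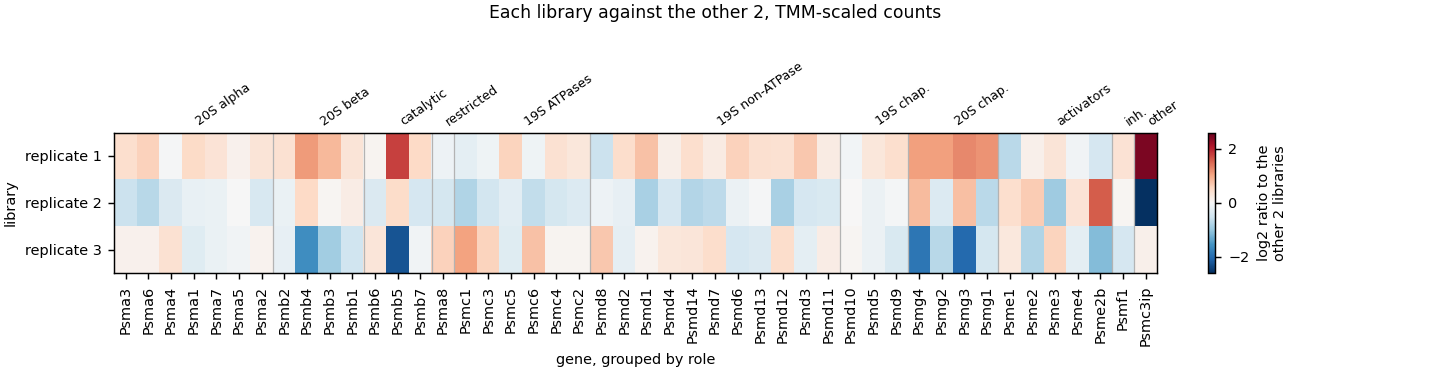
Log2 ratio of each library to the mean of the other 2 (colour, TMM-scaled counts) for the 46 members that passed the filter, 1 row per library and grouped by role. The row of replicate 1 is mostly above 0 (30 genes highest), that of replicate 2 mostly below 0, with exceptions that include Psmb4, Psmb5, Psmg3, Psmg4 and 4 of 5 activators, and replicate 3 is lowest for Psmb5 (−2.25), Psmg3 (−2.03), Psmg4 (−1.89) and Psmb4 (−1.61).

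The roles did not share 1 pattern across the libraries. Median ratios of the 7 alpha-ring genes were 0.36, −0.37 and 0.08 in replicates 1, 2 and 3. Those of the 4 structural beta genes were 0.62, 0.12 and −0.71. For the 6 ATPases they were 0.09, −0.47 and 0.33, and for the 11 non-ATPase subunits 0.42, −0.44 and 0.19. The 3 catalytic genes had 0.52, −0.38 and −0.08. Replicate 3 was thus the lowest for all 4 structural beta genes, but the highest for Psmb6 (0.32) and for 3 of 6 ATPases, while Psmc5 was lowest there (−0.32). The core chaperones had 1.12, 0.21 and −1.30, and the activators −0.09, 0.43 and −0.26. With kallisto-format counts the activators' value in replicate 3 was 0.23, and the core chaperones' value in replicate 2 was −0.63 without replicate 3.

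Between single pairs of libraries between 4 and 8 of 46 members were over 2-fold apart. Replicates 1 and 2 differed over 2-fold for 4 of 46 members (8.70%, against 20.1% of all genes), namely Psmc3ip, Psmd1, Psme2b and Psmg1. Replicates 1 and 3 did so for 8 (17.4%, against 21.1%), namely Psmb3, Psmb4, Psmb5, Psmc3ip and the 4 core chaperones. Replicates 2 and 3 did so for 7 (15.2%, against 19%), namely Psmb4, Psmb5, Psmc1, Psmc3ip, Psme2b, Psmg3 and Psmg4. On log2(TPM + 1) centred on the median of all genes the last 2 counts were 10 and 10, against 17.0% and 15.8% of all genes, so that the members' shares were then above those of all genes. At least 1 pair was over 2-fold apart for 11 members, against 36.9% of all genes. The median SD of the log2 scaled counts was 0.36 over the members, against 0.41 over all genes and 0.38 over the 695 genes with 79.4 to 143 TPM. The spread was uneven within the members. It was 0.04 for Psmd10, 0.07 for Psma5, 0.17 for Psmd5 and 0.21 for Psma7 and Psme4, and 1.37 for Psmb5, 1.18 for Psmg3, 1.09 for Psmg4 and 0.95 for Psmb4.

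The 4 members with the lowest ratios in replicate 3 had short transcripts, of which those of Psmb5, Psmg3 and Psmg4 were GC-rich. The GC content of the most abundant transcript was 56.6% for Psmb5, 56.3% for Psmg3, 55.1% for Psmg4 and 52.2% for Psmb4. Their lengths were 899 bases for Psmb5, 883 for Psmg3, 555 for Psmg4 and 1183 for Psmb4, against a median of 1386 over the members. Across 46 members the ratio of replicate 3 and the GC content had a Pearson r of −0.40 and a Spearman rho of −0.33. With log2 transcript length r was 0.39 and rho 0.38. Across 11882 genes both values were −0.29 for GC content and 0.11 for length. These are correlations across genes of the same libraries, and genes are not independent replicates. Over 3 ranges of GC content that held equal numbers of all genes (bounds 46.67% and 52.98%), the members' median ratio in replicate 3 was 0.09, −0.14 and −0.32, low to high, against 0.16, 0.05 and −0.25 for all genes. The relation did not hold for every member, since Psmb6 (55.8% GC) had a ratio of 0.32 and Psmc3 (55.1% GC) one of 0.59. The part of GC content and length in the low levels of replicate 3 was not tested.

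Most members were read mainly from 1 protein_coding transcript. For 42 of the 45 members detected in every library both transcript tables named the same dominant transcript. Its median share of the gene was 93.4% in the RSEM-format tables and 88.5% in the kallisto-format tables. It was protein_coding for 44 of 45 in each. The exception was Psma3, whose dominant transcript was Psma3-201, annotated as nonsense_mediated_decay, in the RSEM-format tables and another transcript, annotated as retained_intron, in the kallisto-format tables. The other low shares of a dominant transcript were 47.6% for Psmd13, 49.8% for Psmf1, 52.3% for Psmc3, 58.8% for Psmd5 and 59.0% for Psmd11, beside 57.6% for Psmc3ip.

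The share of a gene in transcripts other than protein_coding differed between libraries for some members. Of 39 members with transcripts of both kinds, 7 had a share more than 10 percentage points higher in replicate 3 than the mean of the other 2 libraries, against 18.1% of 8149 genes. They were Psmb4, Psmc1, Psmc3, Psmc6, Psmd2, Psmd13 and Psmd14, and the 7 are 17.9% of the 39, a share near that of all genes. Psma3 alone had a share more than 10 points lower, against 8.96% of all genes. In several genes a single annotated transcript carried much of the shift. Psmc6 had 7.87%, 11.9% and 51.1% of its TPM in such transcripts in replicates 1, 2 and 3, and Psmc6-208, annotated as nonsense_mediated_decay, had 0.56, 0 and 47.5 TPM. Psmc1-204, annotated as processed_transcript, had 0, 0.57 and 57.5 TPM. Psmd2-208, also nonsense_mediated_decay, had 0, 0 and 48.5 TPM.

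These transcripts made up part of the level of the genes. In protein_coding transcripts alone, Psmc6 had 64.6, 51.1 and 61.2 TPM in replicates 1, 2 and 3. Replicate 3 was then no longer the highest in TPM, but it was close to replicate 1. TPM ran low in replicate 3 for genes at large. On log2(TPM + 1) the median ratio of all genes was 0.10 in replicate 1 and −0.23 in replicate 3. Which of these libraries is higher for Psmc6 on centred values was not examined. Psmc1 had 138, 109.5 and 176 TPM and Psmc3 148, 123 and 195 TPM, with replicate 3 still the highest. Psmd13 had 59.7, 46.5 and 17.5 TPM and Psmb4 161.5, 124 and 33.7 TPM, lowest in replicate 3 as before. Psma3 ran the opposite way. Its coding transcripts had 28.8, 18.4 and 128 TPM while the gene as a whole had 209.8, 137 and 169 TPM. By kallisto-format values, 6 of 39 members had a share more than 10 points higher in replicate 3 (15.4%, near the 15.9% of 8149 genes). Among the 6 were Psmc1 (6.14%, 13.7% and 46.0% in replicates 1, 2 and 3), Psmc6 (36.6%, 44.5% and 64.1%) and Psmd13 (39.3%, 41.1% and 69.5%). Psmd2 was not among them, with 1.04%, 2.92% and 7.61%.

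**Figure D4:**
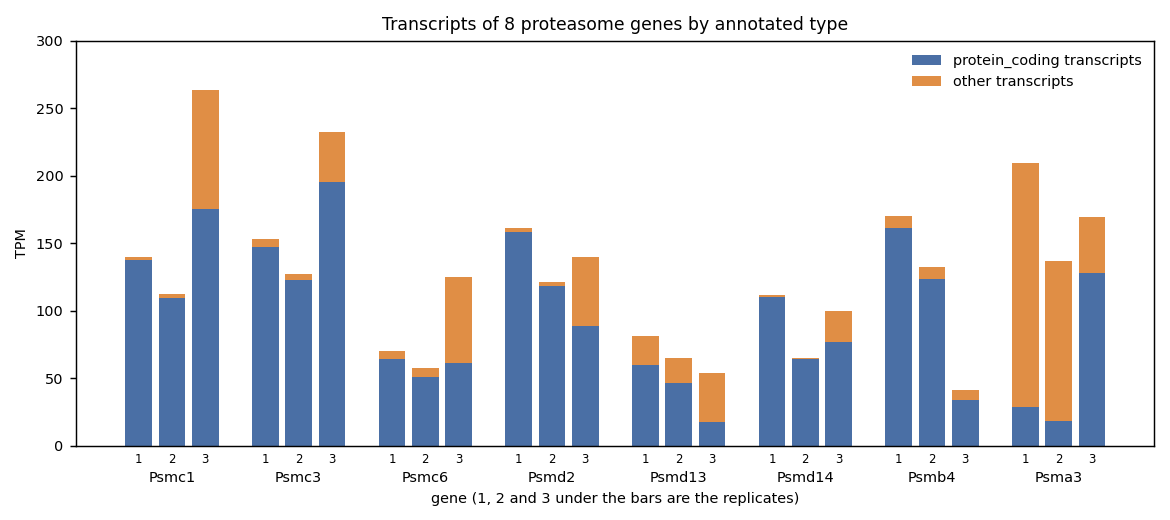
TPM of 8 proteasome genes in replicates 1, 2 and 3 (RSEM-format tables), split into protein_coding transcripts (lower part of each bar) and all other transcripts of the gene (upper part). The upper part is largest in replicate 3 for Psmc1, Psmc3, Psmc6, Psmd2, Psmd13 and Psmd14, and for Psma3 it is largest in replicate 1 and smallest in replicate 3.

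Processed pseudogenes of proteasome genes are common, and reads can be divided between them and their parents. A search for transcripts at least 90% identical over at least 50% of the length found 25 near copies for 13 of 46 members, 22 of them pseudogenes. The 25 include Psme2 and Psme2b, which are members and near copies of each other. Most of the 25 had next to no counts. Gm13835, a processed pseudogene on chromosome 6, is identical to Psma3 over 661 of 875 bases. In the RSEM-format tables it had 121, 88.2 and 49.5 counts in replicates 1, 2 and 3, which are 3.82%, 4.07% and 1.10% of its sum with Psma3. In the kallisto-format tables it had 915, 555 and 2115 counts, or 22.5%, 20.3% and 45.3% of the sum. The mean level of Psma3 was 93.6 TPM in the kallisto-format tables, against 172 TPM in the RSEM-format tables. A730017L22Rik, 97.9% identical to Psmd11 over 1501 bases, had 129 to 351 counts and 235 to 549 counts in the same tables.

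**Figure D5:**
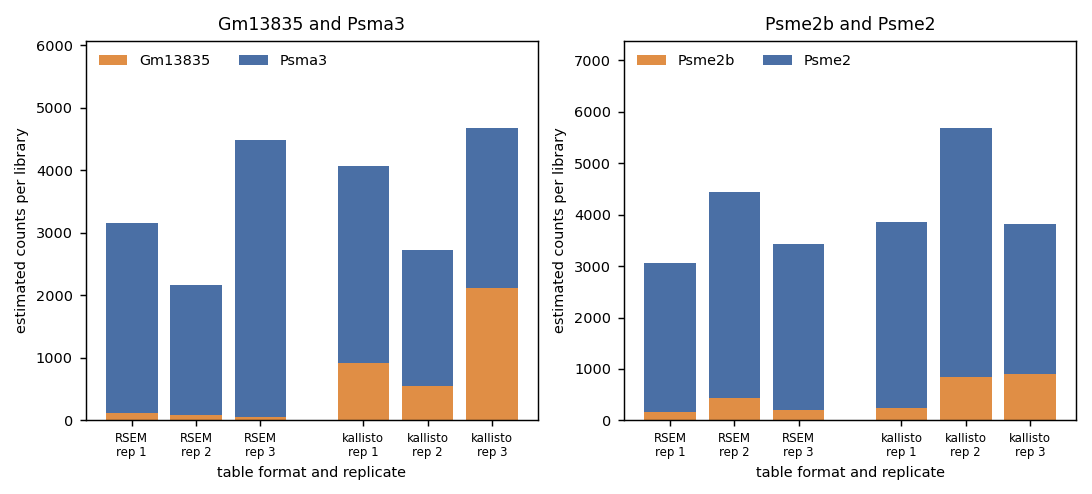
Estimated counts of a near copy (lower part of each bar) and its parent gene (upper part) in replicates 1, 2 and 3, for the RSEM-format and the kallisto-format tables. The kallisto-format tables give Gm13835 20.3% to 45.3% of its sum with Psma3, against 1.10% to 4.07% in the RSEM-format tables, and give Psme2b its largest share in replicate 3 (23.8%).

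Genes that act with the proteasome were expressed as broadly. All 26 genes of a list of ubiquitin sources, receptors, deubiquitinases, assembly factors and regulators reached 1 TPM in all 3 libraries, and their median was 55.6 TPM. The ubiquitin genes Ubb and Rps27a had means of 1015 and 863 TPM. Pomp, the chaperone that guides the beta subunits into the half-particle, had 302, 276 and 353 TPM (310.4 ± 39.0, SD, n = 3). Its levels stood well above those of Psmg1 to Psmg4. Pomp was highest in replicate 3 in TPM and lowest there on scaled counts (log2 ratios of 0.23, −0.09 and −0.13 in replicates 1, 2 and 3). Nfe2l1 had 75.4, 73.4 and 81.9 TPM, and Ddi2, the protease that cleaves its product into the active form, had 26.8, 27.1 and 25.9 TPM. In TPM Nfe2l1 and Ddi2 were nearly even across the libraries, and on scaled counts their highest and lowest libraries lay 1.25-fold and 1.29-fold apart.

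Of the 26 genes, 4 had libraries over 2-fold apart, beside the 36.9% of all genes given above. Uchl5, Nfe2l2 and Rps27a were among them. Nfe2l2, the antioxidant regulator, had 148, 327 and 297 TPM and was lowest in replicate 1, where most proteasome subunits were highest. Uchl5, a deubiquitinase of the cap, had 47.2, 22.5 and 57.0 TPM, and its docking partner Adrm1 had 74.6, 47.2 and 36.1 TPM. The list's median ratios were 0.21, −0.10 and −0.03 in replicates 1, 2 and 3.

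The members lie on 16 chromosomes, with 10 on chromosome 11 and 6 on chromosome 14. Psme1 (chr14:55578123-55581529, forward strand) and Psme2 (chr14:55587441-55591113, reverse strand) are near neighbours, with coding sequences 57.9% identical. Exons of 10 members overlap a gene on the opposite strand. Whether counting used strand is not given in the sources used here, so that reads of such partners may be included in those members.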

How the data were processed

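Polyadenylated RNA of 3 macrophage libraries was analysed as 1 group, from the labels. Each library has a gene table and a transcript table in RSEM format and a transcript table in kallisto format, per the file headers. The deposited lists give build mm10 and annotation GENCODE M21. Aligner, program versions and strand setting: not given in the sources used here.

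Shared reads were divided by the authors' programs, so the deposited expected counts can hold fractions. The authors' kallisto-format tables give estimated counts per transcript. TPM values, per the file headers, are scaled after division by effective length. FPKM values in the deposited tables are per kilobase and library size. Entries that name no gene (0.131%, 0.122% and 0.0843% of the counts in replicates 1, 2 and 3) were left out.

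Expected counts were rounded, filtered by filterByExpr, scaled by TMM in edgeR 4.0.16 (R 4.3.3) and put on a log2 scale with a prior count of 0.5. Calculations were tested on simulated data. Genes were called over 2-fold apart without a p-value, because 1 group allows no test. A count of 0 allows 3 counts. Near copies were sought with blastn 2.17.0, and coding sequences aligned with Biopython 1.88. Alternatives were DESeq2 1.42.0 size factors, other estimates and thresholds, and each library left out.

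The members, the gene lists and the rule for genes given in full (the highest and lowest of each role, the widest and narrowest spreads and the lowest dominant shares) were chosen with earlier results of these data known. The comparison of transcripts other than protein_coding and its threshold of 10 percentage points were chosen after their values were seen. Values of some genes on the list of genes that act with the proteasome are not reported here.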

Additional observations from a re-analysis of the deposited data

Results flagged for a closer look

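Of the near copies that are not themselves among the 47 proteasome genes, 2 had counts above the limit that a count of 0 allows, 3 counts, in every library and both kinds of table. Gm13835, the near copy of Psma3, had 49.5 to 121 expected counts and 555 to 2115 kallisto-format counts. A730017L22Rik, the near copy of Psmd11, had 129 to 351 expected counts and 235 to 549 kallisto-format counts.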

How the results depend on the processing

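No paired analysis was possible because there was 1 group. The median member level was 84.3 TPM, 57.3 in FPKM and 65.3 in kallisto-format TPM, and 72.7 to 87.9 TPM with 1 library left out. The median SD of 0.36 (log2) was 0.40 on log2(TPM + 1), against 0.39 for all genes, and 0.29 to 0.33 with 1 library left out. Directions reversed for the activators in replicate 3 (0.23 with kallisto-format counts, main value −0.26), for Psme2b in replicate 3 (0.53 with kallisto-format counts, main value −1.13), and for the core chaperones in replicate 2 (−0.63 to 1.02 with 1 library left out, main value 0.21). Values near 0 also changed sign. The members' median in replicate 3 was 0.07 without replicate 1 and −0.34 without replicate 2, and in replicate 2 −0.07 without replicate 1. The subunits' 0.07 in replicate 3 was −0.22 without replicate 2 and −0.27 on log2(TPM + 1), and their 0.39 in replicate 1 was 0.22 without replicate 2. The activators' −0.09 in replicate 1 was 0.11 without replicate 2 and 0.10 on log2(TPM + 1). The core chaperones' 1.12 in replicate 1 was 0.63 without replicate 3 and 1.58 without replicate 2. The cause was not tested. On log2(TPM + 1) the median of all genes moved by 0.10, 0.12 and −0.23 in replicates 1, 2 and 3. Centred on that median, replicate 1 was the highest library for 24 of 46 members and 17 of 31 subunits, and uncentred for 34 and 27. None of the 31 subunits was highest in replicate 2 under any scaling tried. The remaining counts past a threshold stayed within 1.5 times, and of the alternatives for the main results 99 gave the same verdict and 6 moved. The margins behind that verdict were wide. For the members' median ratios a shift under 0.36 counted as the same, which is about as large as the ratios or larger. For the ratio of Psmb8 to Psmb5 the margin was the SD over libraries, 1.64. The tally therefore says little about how stable these ratios are. Levels of 12 of 46 members moved by more than their SD with kallisto-format TPM, whose median ratio to the RSEM-format TPM was 0.798 over the members and 0.822 over all genes detected in every library. Depth limits Psmb11, Psma8 and Psmg1 to Psmg4, which had few counts.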
